A study of Homo sapiens with 3 samples.

Results

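The MLX glucose-sensing branch comprised 5 genes of the extended MYC network: MLX, MLXIP, MLXIPL, TXNIP and ARRDC4. They were chosen by name, from 19974 protein-coding genes on chromosomes 1 to 22 and X. Each was given every MYC peak whose summit lay inside its RefSeq span or within 5000 bp of it. This took in 3 of the 9818 peaks of the deposited list, and the 3 genes left without a peak were kept as members. MYC-bound DNA of parental U2OS cells, an established human osteosarcoma line, was sequenced by ChIP-Rx, in which fixed cells of another species are mixed in before immunoprecipitation as a common reference. The 2 libraries made with an anti-MYC antibody and the 1 input library, made without antibody, came from untreated cells of this line. The cells were all fixed with 1% formaldehyde for 10 min and mixed with 10% of mouse NIH3T3 cells. The labels name no genotype change, treatment or time. The libraries are represented by 1 joint peak list, so no value below has a replicate error, the depth is unknown, and the line's defining markers could not be checked, since levels of RNA were not measured. The IP libraries are given as biological replicates in the series design.

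MYC and the MLX branch work in parallel. MYC pairs with MAX to bind E-boxes, short elements whose canonical form reads CACGTG. MLX is the matching partner of MLXIP, also called MondoA, and of MLXIPL, also called ChREBP. These sensors respond to glucose 6-phosphate, move to the nucleus and bind a carbohydrate response element, in which E-box-like sites stand as a pair at a fixed spacing. TXNIP and ARRDC4 are their best known shared targets and encode alpha-arrestins that reduce glucose uptake. MLX can also pair with the MAX partners MXD1, MXD4 and MNT, which ties the branch to the MYC and MAX side of the network.

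Of the 5 genes, MLXIP was the only one with a summit at its own start, with an authors' fold enrichment of 18.7 at the summit. MLX had a peak on each side within the window, both at the starts of other genes and both near 6-fold. MLXIPL, TXNIP and ARRDC4 had none, and their nearest summits lay 14837, 55436 and 574568 bp away. By the 5000 bp rule 2 of the 5 genes had a summit, beside 47.7% of all protein-coding genes. Within 1000 bp of an annotated gene end it was 1 of the 5, beside 37.6%, and within 1000 bp of a start site 1 of the 5, beside 41.5% of the 15812 genes with a start in the promoter table. With members this few, none of these counts sets the branch apart from protein-coding genes at large.

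The promoters of the 5 genes carry the E-box differences that the peak list is set against below, and they are shown here for that reason. Each line gives the 250 bases before the annotated start, 5′ to 3′ along transcription, from RefSeq on GRCh38.p14, the assembly that hg38 names. Capitals mark a canonical E-box, the variant CACGCG on either strand, or the tandem form, which follows the carbohydrate response element and reads CACGNG, then 5 free bases, then CNCGNG, with N for any base.
MLX (chr17:42566850-42567099, plus strand): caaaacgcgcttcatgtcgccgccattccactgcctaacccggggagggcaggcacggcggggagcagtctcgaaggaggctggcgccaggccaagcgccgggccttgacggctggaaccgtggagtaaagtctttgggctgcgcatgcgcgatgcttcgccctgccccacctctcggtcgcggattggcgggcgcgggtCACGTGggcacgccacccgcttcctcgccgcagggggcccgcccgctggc
MLXIP (chr12:122078506-122078755, plus strand): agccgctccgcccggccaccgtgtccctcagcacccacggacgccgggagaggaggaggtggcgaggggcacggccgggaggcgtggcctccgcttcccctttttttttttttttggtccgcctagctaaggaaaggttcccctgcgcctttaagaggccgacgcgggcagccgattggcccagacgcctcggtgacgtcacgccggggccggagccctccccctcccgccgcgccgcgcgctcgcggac
MLXIPL (chr7:73624523-73624772, minus strand): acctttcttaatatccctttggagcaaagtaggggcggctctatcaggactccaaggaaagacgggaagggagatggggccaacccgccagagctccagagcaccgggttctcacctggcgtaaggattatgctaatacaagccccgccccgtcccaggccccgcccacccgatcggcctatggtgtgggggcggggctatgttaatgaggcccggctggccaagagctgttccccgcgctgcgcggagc
TXNIP (chr1:145996580-145996829, minus strand): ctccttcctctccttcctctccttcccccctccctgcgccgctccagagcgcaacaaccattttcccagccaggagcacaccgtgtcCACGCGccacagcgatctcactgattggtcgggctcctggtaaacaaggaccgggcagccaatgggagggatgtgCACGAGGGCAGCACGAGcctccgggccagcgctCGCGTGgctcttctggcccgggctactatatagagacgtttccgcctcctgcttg
ARRDC4 (chr15:97960453-97960702, plus strand): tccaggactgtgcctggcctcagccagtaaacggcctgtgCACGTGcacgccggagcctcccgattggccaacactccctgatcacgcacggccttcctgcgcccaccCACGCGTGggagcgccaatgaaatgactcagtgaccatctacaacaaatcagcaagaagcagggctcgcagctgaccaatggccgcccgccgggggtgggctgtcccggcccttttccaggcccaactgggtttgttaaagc

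MLXIP encodes the glucose sensor MondoA, the form found in most tissues. Its peak ran from 122078122 to 122078931 on chromosome 12 (hg38), 810 bp in all, close to the list's median width of 747 bp. The summit lay 359 bp before the annotated start of MLXIP, which spans 122078756 to 122147344, and no other gene end of any class was nearer. The authors' fold of 18.7 was the 817th highest of 9818 and stood at the 91.7th percentile, beside a list median of 7.78. By the authors' −log10 q of 246 the peak ranked 547th, at the 94.4th percentile. Among the strongest peaks of the 9520 genes that met the same rule, whose median fold was 8.56, it stood at the 89.1st percentile. All 300 bases of its promoter window, from 250 before to 50 after the start, lay under the peak. The summit itself lay further upstream, outside the sequence available.

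This peak had no close company. The next summit on chromosome 12 lay 78663 bp beyond the far end of MLXIP, near the start of DIABLO, a mitochondrial apoptosis factor, with a fold of 6.4. None of the 3 other protein-coding genes within 50000 bp, BCL7A, LRRC43 and IL31, had a summit within 1000 bp of an end. No summit lay inside the 68589 bp of MLXIP, so the occupancy of this gene in the list was its start alone.

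MLX encodes the partner that both sensors need for binding DNA. It is a short gene, 6104 bp on chromosome 17 from 42567100 to 42573203, with 9 other protein-coding genes within 100000 bp. Neither of its peaks was at MLX itself. The upstream peak (42561667 to 42562559, fold 6.25, −log10 q of 46.0) had its summit 27 bp inside the start of COASY, a coenzyme A synthesis gene that ends 823 bp before MLX begins. The downstream peak (42577376 to 42578081, fold 6.19, −log10 q of 50.1) had its summit 40 bp before the start of PSMC3IP, a homologous recombination factor gene. PSMC3IP is read in the opposite direction and overlaps the last 894 bp of MLX.

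Both peaks were of ordinary size. Their folds stood at the 33.2nd and 32.6th percentiles of the list, below its median, although their −log10 q values stood near the middle, at the 48.3rd and 52nd percentiles. The summits lay 4925 bp before and 4668 bp beyond the MLX span, just inside the 5000 bp limit. The nearest summits outside the limit were 12252 bp from MLX, at HSD17B1-AS1 with a fold of 6.21, and 14837 bp from MLXIPL. When each peak was given only to the protein-coding gene with the nearest end, MLX had none and MLXIP alone of the 5 remained, beside 38.2% of protein-coding genes by that rule, a way of assigning peaks added after the data were seen.

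MLX stood in a neighbourhood with many peaks. Within 100000 bp of the gene lay 6 summits, beside a median of 2 over all protein-coding genes, and 6 of the 7 protein-coding genes within 50000 bp had a summit within 1000 bp of an end. They were NAGLU (fold 15.3), a lysosomal enzyme gene, HSD17B1 (6.21), COASY, PSMC3IP, and RETREG3 and TUBG1, which share a peak (8.51). The stretch from summit to summit around MLX was 15696 bp, and only 11.7% of such stretches were shorter.

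MLXIPL encodes ChREBP, the glucose sensor best known from liver and fat. It spans 73593202 to 73647907 on chromosome 7, read on the minus strand. The start site in the promoter table, at 73624522, lies 23385 bp inside the far end of this span. No summit lay in any part of it. The nearest was 14837 bp beyond the lower end, at the start of TBL2, a gene of the same Williams syndrome region, with a fold of 15.3. On the other side the nearest lay 35695 bp away, 5 bp inside the start of BUD23, a ribosomal RNA methyltransferase gene, with a fold of 19.9. DNAJC30, a mitochondrial chaperone gene read in the opposite direction, starts next to it.

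As at MLX, the genes around MLXIPL were occupied. Of the 5 protein-coding genes within 50000 bp, 4 had a summit within 1000 bp of an end, namely BCL7B (fold 8.1), TBL2, DNAJC30 and BUD23, and only VPS37D did not. Within 100000 bp there were 6 summits, as many as around MLX and more than or equal to the number around 95.6% of protein-coding genes. The strongest of them, at BUD23, had a fold of 19.9, beside 18.7 for the MLXIP peak, and a −log10 q of 193, beside 246.

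**Figure D1:**
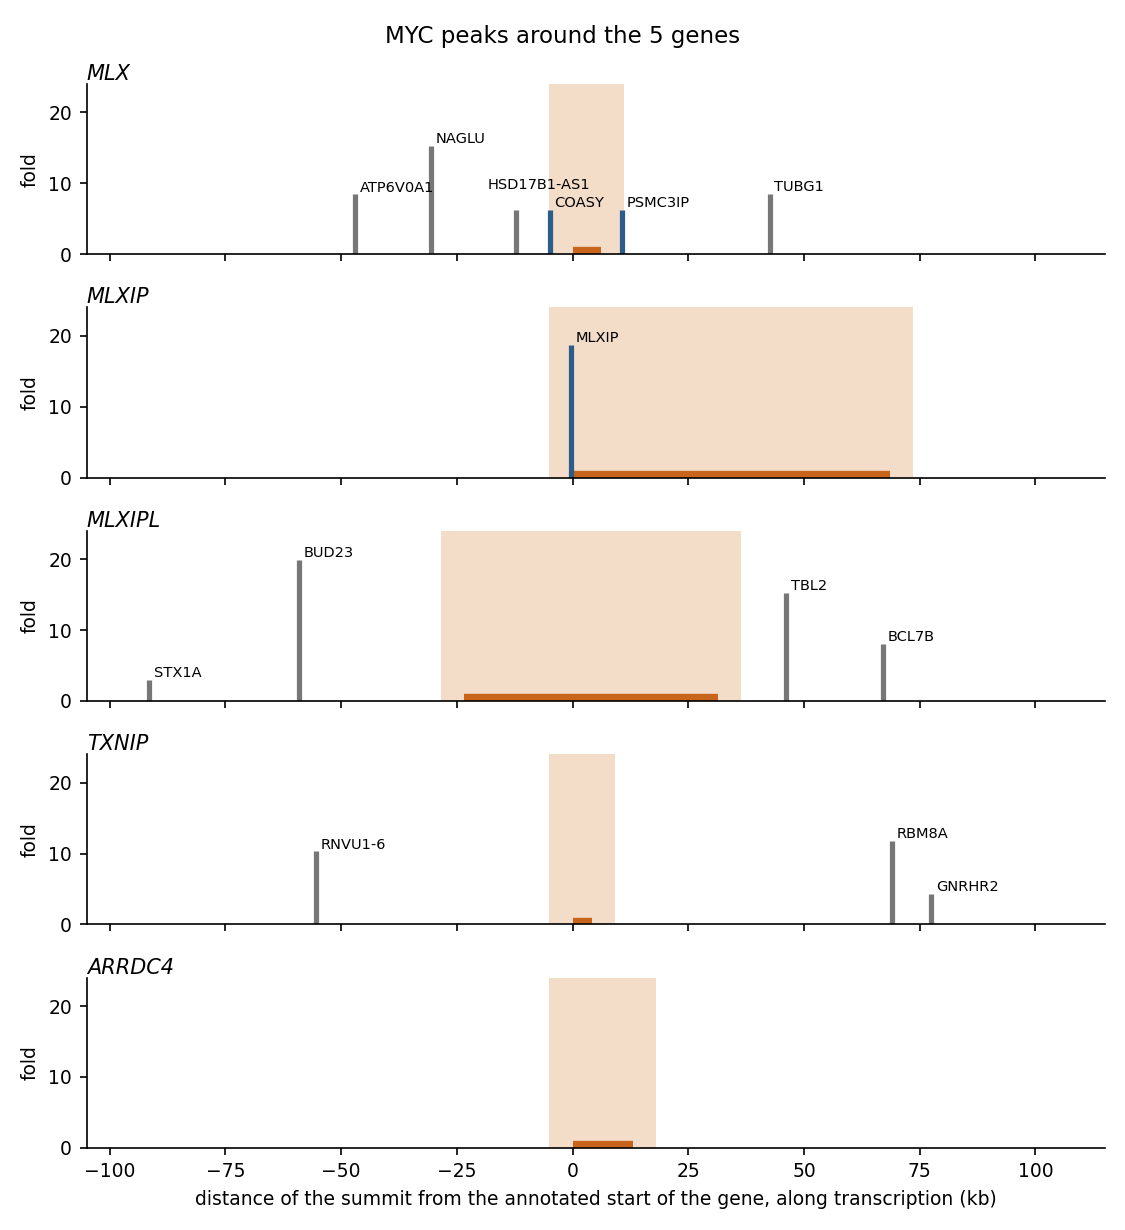
MYC summits within 100 kb of the annotated start of each of the 5 genes, placed by distance along transcription (kb), with height giving the authors' fold; orange bars are the annotated genes, shading adds 5000 bp on each side, blue lines are the peaks assigned by the rule, grey lines all others, and labels name the gene with the nearest end. MLXIP alone has a line at its own start (fold 18.7), MLX and MLXIPL stand among occupied neighbours, and the panel of ARRDC4 is empty.

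TXNIP encodes the thioredoxin-interacting protein, which binds thioredoxin and promotes internalisation of glucose transporters. It spans 145992435 to 145996579 on chromosome 1, on the minus strand, and 2 start sites are given for it, at 145996579 and 145995744. Neither had a summit within 1000 bp. The nearest summit was 55436 bp upstream, 66 bp from an end of RNVU1-6, a small nuclear RNA gene, with a fold of 10.3. Downstream the nearest was 64810 bp away, 141 bp before the start of RBM8A, a core gene of the exon junction complex, with a fold of 11.8. The free stretch of 124390 bp was not exceptional, as 58.4% of the 9795 stretches between neighbouring summits were shorter. All 4 protein-coding genes within 50000 bp of TXNIP, LIX1L, ANKRD34A, POLR3GL and HJV, likewise had no summit within 1000 bp of an end.

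ARRDC4, the alpha-arrestin gene closest to TXNIP in its glucose response, lay in the emptiest surroundings. It spans 97960703 to 97973833 on chromosome 15. The nearest summit was 574568 bp away and, at fold 4.95, was a low one (16.9th percentile). Only 6.18% of protein-coding genes were farther from a summit. The next with a fold above the list median of 7.78 were 635904 bp (fold 9.67) and 673647 bp away (fold 15.5), the latter 1059 bp before the start of IGF1R, the insulin-like growth factor receptor gene. On the other side no summit was found for 1603615 bp.

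These surroundings are also poor in genes. The summit-free stretch of 2191313 bp around ARRDC4 was longer than 97.8% of all stretches, and ARRDC4 was the 1 protein-coding gene that lay whole within it. No other protein-coding gene was annotated within 500000 bp. Of the 155 genes with no such neighbour, 24.5% had a summit by the 5000 bp rule, beside 47.9% of the 8010 genes with 1 to 10 neighbours and 47.3% of the 1317 genes with over 40. TXNIP, MLXIP and MLXIPL fell among the 5589 genes with 11 to 20 neighbours (49.3%), and MLX among those with over 40. ARRDC4 was the only member without such a neighbour, and the part of gene density in the missing peak was not tested.

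**Figure D2:**
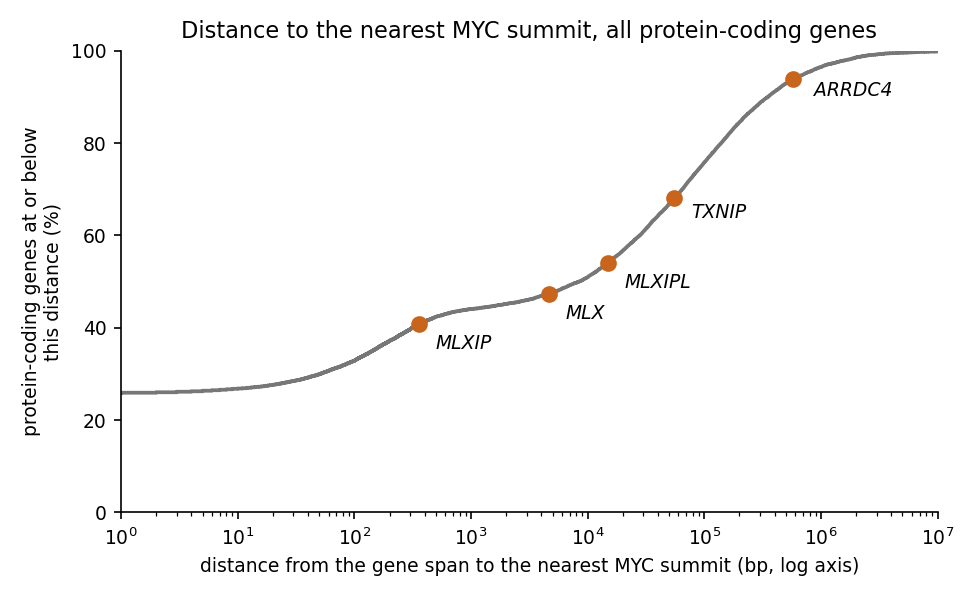
Share of the 19974 protein-coding genes (vertical axis, percent) whose span lies at or below a given distance from the nearest MYC summit (horizontal axis, bp, log scale; genes with a summit inside, 25.9%, lie left of the axis). Points mark the 5 genes, in order of distance MLXIP (359 bp), MLX (4668), MLXIPL (14837), TXNIP (55436) and ARRDC4 (574568).

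In order of distance to the nearest summit the members were MLXIP, MLX, MLXIPL, TXNIP and ARRDC4. For MLX and MLXIPL that summit was at the start of another gene, PSMC3IP and TBL2 respectively. The median distance over all protein-coding genes was 8420 bp, with quartiles of 0 and 94404 bp. MLXIP and MLX were nearer than the median and the other members farther. Without values per library, no spread can be set on these distances.

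E-boxes and peaks did not coincide in the 5 promoters. The canonical E-box occurred at position -50 of MLX and at position -210 of ARRDC4, both without a summit within 1000 bp. Positions here and below are those of the first base of the match, counted from the start site, negative before it. MLXIP, the occupied promoter, held no canonical E-box in the window of 300 bases, no CACGCG or CATGTG and no CANNTG of any core. MLXIPL held a single E-box with another core, which reads CACCTG, at position -138. No match says only that these letters are not in this window.

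The target genes held the related forms. ARRDC4 carried CACGCG on both strands in overlapping matches, at -142 and -140. TXNIP carried CACGCG on the printed strand at -163 and on the other strand at -55 of its upstream start. Between them, from -88 to -72 (chromosome 1, 145996651 to 145996667), stood the tandem form, CACGAGGGCAGCACGAG, in which CACGAG is read on both sides of the spacer. It was the only match to this form among the 5 genes. The window of the second TXNIP start held none of the forms searched.

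**Figure D3:**
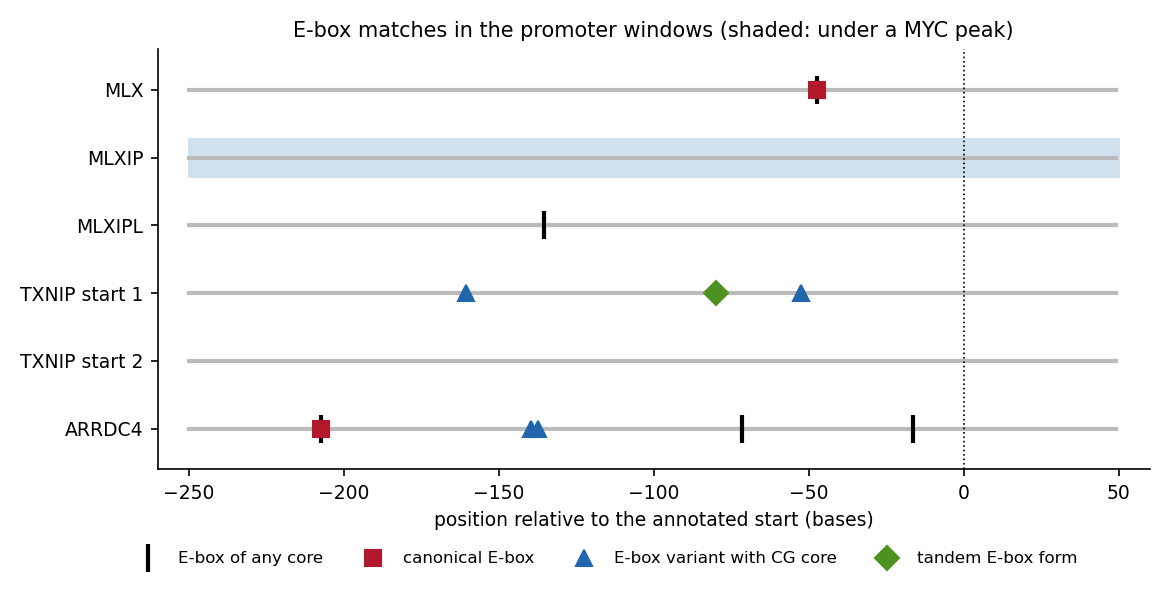
E-box matches along the promoter windows of the 5 genes (bases from the annotated start, with TXNIP drawn for each of its 2 starts), with symbols for the form of the match and blue shading where the window lies under a MYC peak. The only shaded window, MLXIP, has no match, while MLX, TXNIP and ARRDC4 have matches and no shading.

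Motif shares over all promoters put these matches in proportion. The windows covered 15812 of the 19974 protein-coding genes, with 22132 windows in all, since a gene can have several starts that overlap. A match was searched on both strands. The canonical E-box was in 8.34% of windows, CACGCG in 14.2%, CATGTG in 8.93% and CANNTG in 65.1%, a share that includes every canonical and CATGTG match. The tandem form was rare, in 146 windows or 0.66%.

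A summit lay within 1000 bp of the start of 37.4% of windows, and of 53.8% of the 1846 windows with a canonical E-box against 35.9% of those without. For the tandem form it was 84 of 146 windows (57.5%), so TXNIP was among the 62 such windows with none. The window of MLXIP and both windows of TXNIP were among the 7727 without any CANNTG, of which 45.5% had a summit. Of these member windows only that of MLXIP had one. Windows of the same gene share sequence and peaks, so these shares are descriptions without a test. An occupied promoter without an E-box in the window, and an E-box promoter without a peak, were both common.

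The share of windows with a summit was higher where there was more CpG. When windows were ranked by their number of CpG and divided into 5 equal groups, the share with a summit rose from 1.72% in the lowest group to 51.9% in the middle one and 57.8% in the highest. Windows with a canonical E-box rose in number with it, from 113 in the lowest group to 492 in the highest, whereas windows with a CANNTG of any core fell from 3563 to 2161. The windows of MLX (37 CpG, 71% G and C) and MLXIP (43 CpG, 73.7%) were in the highest group. Those of MLXIPL (23 CpG), ARRDC4 (24) and the upstream start of TXNIP (19) were in the middle one, and the second TXNIP start (4 CpG) was in the lowest. In the highest group 68.7% of windows with a canonical E-box had a summit and 56.4% of those without, and in the middle group 57.5% and 51.3%. For the tandem form in the middle group it was 11 of 27 windows, or 40.7%, beside 52% of those without it, but in the highest group it was 63.5% beside 57.7%, and in the group next to it 62.2% beside 57.2%.

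MLX and MLXIP were in the same group by CpG number, and the one with the canonical E-box had no summit within 1000 bp of its start. MLX, with a canonical E-box and 37 CpG, was among the 154 of 492 such windows in the highest group with no summit within 1000 bp. ARRDC4, with a canonical E-box in the middle group, was among 185 of 435.

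**Figure D4:**
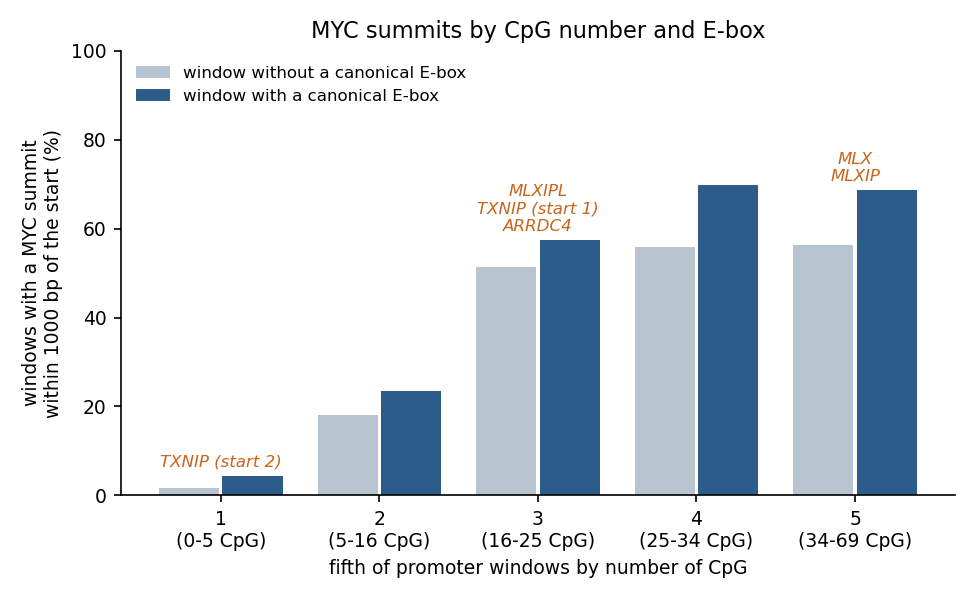
Share of promoter windows with a MYC summit within 1000 bp of the start (vertical axis, percent), in 5 groups of rising CpG number (horizontal axis), without (grey) and with (blue) a canonical E-box; orange names place the windows of the 5 genes. The share is near 0 in the lowest group and above 50% from the middle group on, where all but the second TXNIP window stand.

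The wider pathway was read from 6 lists of 71 genes that complete the branch. These lists were chosen with earlier results of these data known, so their shares are descriptions only. Over all lists 49 genes (69%) had a summit by the 5000 bp rule, beside 47.7% of protein-coding genes, and 40 (56.3%) had a summit within 1000 bp of an end, beside 37.6%. The median fold of the strongest peak of those with one was 9.42, beside 8.56 over all genes that met the rule. A strongest peak can belong to a neighbouring gene within the window, as at MLX.

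Among 10 partners and rivals of MLX and MAX, 6 had a summit, beside 47.7% of protein-coding genes. Within 1000 bp of a gene end it was 5 of the 10, beside 37.6%. By −log10 q the strongest were at MXD3 (fold 26.9), MNT (29.5, inside the gene) and MXD1 (18.9), repressors that compete with MYC for E-boxes. Of the 3 that can pair with MLX, MNT stood at 29.5 and MXD1 at 18.9, beside 18.7 at MLXIP, and MXD4 had a low fold of 4.84. MYC itself, MYCN, MYCL and MXI1 had none.

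TXNIP and ARRDC4 had no summit, whereas all 7 listed relatives and partners of TXNIP had a summit in the window, beside 47.7% of protein-coding genes. In the stronger 50% of peaks this was 3 of the 7, beside 27.7% of protein-coding genes. Inside the gene alone it was 4, beside 25.9%. They were the alpha-arrestin genes ARRDC1 (fold 11.4), ARRDC2 (15.8), ARRDC3 (6.8) and ARRDC5 (11.7), the thioredoxin genes TXN (4.78) and TXN2 (6.44), and the thioredoxin reductase gene TXNRD1 (7.04). For 4 of them, ARRDC2, ARRDC3, TXN and TXN2, it lay within 1000 bp of an annotated end, beside 37.6% of protein-coding genes. TXNRD1 had one within 1000 bp of a start site inside its span. The summit given to ARRDC1 was 3279 bp outside the gene.

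The list of glucose uptake and phosphorylation gave 6 of 13 genes with a summit, beside 47.7% of protein-coding genes. It holds genes of the steps that make the signal for the sensors, and also glucose-6-phosphatase genes, which act in reverse. G6PC3, a glucose-6-phosphatase gene, stood at fold 91.9, HK2, a hexokinase gene, at 19.9 and SLC2A1, the gene of the glucose transporter GLUT1, at 11.8. HK1 (5.67), SLC2A4 (11.9) and SLC37A4 (11.6) completed the 6. Among those with none were the tissue-restricted genes SLC2A2, G6PC1, G6PC2, HK3 and HKDC1, and also SLC2A3.

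Other known targets of ChREBP and MondoA had a summit in 15 of 20 cases, beside 47.7% of protein-coding genes. In 13 of the 20 it lay within 1000 bp of a gene end, beside 37.6%. FASN, the fatty acid synthase gene, was strongest by −log10 q (fold 27.3, summit 923 bp outside the gene). PFKFB3, which drives glycolysis (fold 19.2), and KHK, the fructokinase gene (11.2), came next by −log10 q. ACACA, ACACB, THRSP and TM6SF2 were among those with none. For ACACA the nearest summit lay 1353360 bp away, and whether a peak could be called in that region was not tested. The median fold of the 15 was 8.67.

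Other E-box factors of the same structural class had a summit in 6 of 9 cases, beside 47.7% of protein-coding genes. Within 1000 bp of a gene end it was 4 of the 9, beside 37.6%. TFAP4 (fold 27.6), SREBF1 (14.5) and SREBF2 (9.03) were strongest by −log10 q. Kinases and anchor proteins that act on nutrient signals or on the sensors gave 9 of 12, beside 47.7% of protein-coding genes. In the stronger 50% of peaks it was 5 of 12, beside 27.7%. By −log10 q this list was led by PRKAA1, a catalytic subunit gene of AMP-activated kinase (fold 17.3), and YWHAH, a 14-3-3 gene (9.42). OGT, which adds sugar to proteins including ChREBP, came next (16.2).

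**Figure D5:**
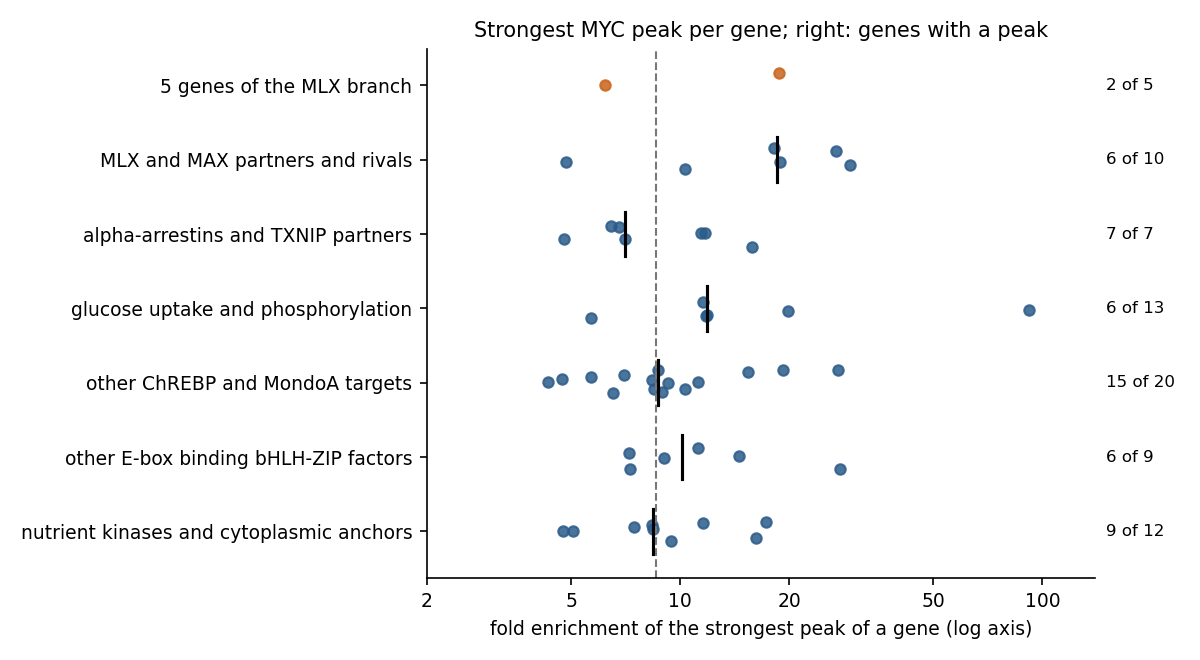
Fold of the strongest MYC peak by −log10 q (log axis) for each gene with a summit by the 5000 bp rule, in the MLX branch (orange) and 6 related lists (blue); bars mark list medians, the dashed line the median of 8.56 over all genes that met the rule, and numbers at the right the genes with a summit. MLXIP at 18.7 and MLX at 6.19 are the only points of the branch.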

How the data were processed

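MYC ChIP-Rx of U2OS cells was represented by 1 deposited peak list, named for hg38. Builds hg38, hg19 and mm10, and the tools MACS2, Picard, SAMtools, Bowtie2 and cutadapt, are listed in the submitters' processing notes without versions or roles. How mouse reads and input entered the scaling, and whether the 2 IP libraries were pooled, is not given in the sources used here. In the narrowPeak layout the authors' fold is a linear ratio of IP over control at the summit, and the authors' −log10 p and −log10 q and a score derived from the latter are deposited beside it. Fold and −log10 q served only to rank and describe peaks, and the other columns were not used.

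Spans came from the RefSeq table of GRCh38.p14, without exons, and start sites and promoter sequences from the matching RefSeq promoter table. All 5 members and 55 of the 71 list genes were in it. Summits were assigned with pandas 2.3.3 and NumPy 2.4.6 (Python 3.11.15), by code that was tested on simulated data. Percentiles give the share of peaks or genes at or below a value. The members and lists were chosen with earlier results of these data known. The text names all members, the gene end nearest to each of their summits, the 3 strongest genes of each list by −log10 q and all TXNIP relatives; others were named after their values were seen. Some list genes are not reported here by name. No test was run, since the list holds no values per library. Alternatives were other windows, any base of the peak, stricter −log10 q, and −log10 q in place of fold. A comparison of protein sequences was planned and not made.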

Additional observations from a re-analysis of the deposited data

How the results depend on the processing

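Depth and replicate error are unknown, no library could be left out, and the annotation gives spans and starts without exons. No paired analysis was possible because the 1 peak list holds no values per library. The number of members with a summit was 2 with a window of 10000 bp (50.9% of protein-coding genes), with any base of the peak (47.9%), in the stronger 50% of peaks (27.7%) and at a −log10 q of at least 10 (47.2%). It was 1 within 1000 bp of the gene (1 peak; 44.1%), 0 inside the gene alone (0 peaks; 25.9%), and 1 with each peak given to its nearest gene end only. Members with a summit near a gene end rose from 1 to 2 with a window of 5000 bp, which added MLX through its COASY and PSMC3IP peaks. The share of all protein-coding genes also rises with this window, from 37.6% to at most the 47.7% of the 5000 bp rule. Of the 71 list genes 26 had a summit inside the gene alone, against 49 by the rule. By −log10 q the COASY, PSMC3IP and MLXIP peaks stood at the 48.3rd, 52nd and 94.4th percentiles, and among strongest peaks of genes at the 27th, 26.3rd and 89.1st by fold. From peak midpoints their distances to the member's start were -4987, 10628 and -230 bp, against -4925, 10771 and -359 bp from summits. From 100 bases before to 50 after the start, 1 member held a canonical E-box and 1 held CACGCG, against 2 each in the whole window.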

Other observations

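The tandem E-box form found at TXNIP stood in the promoter windows of 140 protein-coding genes, and 80 of them (57.1%) had a MYC summit within 1000 bp of such a start, beside 41.5% of all genes with a start in the table. The form lay mostly in windows rich in CpG, with 37 and 74 of its 146 windows in the upper 2 of the 5 CpG groups, where 57.3% and 57.8% of all windows had a summit. Genes with the form and a summit, named after their values were seen and not in full, included RAN, the nuclear transport GTPase gene (fold 77.5), and THNSL1 (39.5). At RAN the match began at position -113 and read CACGCGCGGGCCACGTG, with a canonical E-box as one side of the pair. The glutamine transporter gene SLC1A5 (27.0) and GPX1 (23.4), a glutathione peroxidase gene, also held the form.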
